A study of Homo sapiens with 6 samples.

Results

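The genes described here are 10 negative regulators and transcriptional outputs of ERK signalling: the dual-specificity phosphatase genes DUSP1, DUSP4, DUSP5 and DUSP6, the Sprouty genes SPRY2 and SPRY4, the Sprouty-related genes SPRED1 and SPRED2, and the PEA3-type ETS factor genes ETV4 and ETV5. They were chosen by name, and 5 of the 10 stood among the 7150 genes of the authors' deposited table. RNA came from wild-type MDA-MB-231 cells, a mesenchymal human triple-negative breast cancer line. Of 6 libraries, 3 came from cells with no treatment and 3 from cells given shikonin, a plant naphthoquinone, at 0.5 µM for 24 h (the labels write the unit with a lower-case m, and name no vehicle). All libraries came from 1 line, and the labels do not say whether the 3 libraries of a group were separate cultures. The p-values therefore measure the spread between these samples only, which may be technical. The table has 0 columns of per-sample values, so values per library and depth are not known here. Each gene is given by the authors' mean over all libraries, by group means solved from that mean and the fold, and by the standard error of the fold.

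ERK is the last kinase of the RAS, RAF and MEK cascade that growth factor receptors switch on. Active ERK raises transcription of its own brakes: DUSP proteins remove phosphate from MAP kinases in the nucleus or cytoplasm, Sprouty proteins act between receptors and RAF, and SPRED proteins bring the RAS inhibitor neurofibromin to the membrane. ETV4 and ETV5 are transcription factors whose genes are held down by the repressor CIC until ERK relieves it, and levels of these messages are widely used as a readout of the pathway in tumours.

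Both listed phosphatase genes, DUSP1 and DUSP5, rose in shikonin, and the 3 listed Sprouty and SPRED genes, SPRY4, SPRED1 and SPRED2, fell. DUSP4, DUSP6, SPRY2, ETV4 and ETV5 were not listed. The table keeps genes with a fold above 1.5 and an adjusted p below 0.05 in the authors' DESeq2 Wald test, so an unlisted gene either missed one of these thresholds or was not tested, and its direction is not known here. The table's adjusted p-values imply 14252 genes tested, of which 50.2% were called in either direction, 25.5% as higher and 24.7% as lower. With 5 of 10 called, 2 higher and 3 lower, the members were called about as often as genes in general. At a fold of at least 2, 31.1% of tested genes were called, 16.4% as higher and 14.6% as lower, and 4 of the 10 members, 1 higher and 3 lower. The median log2 fold change of the 5 listed members was -1.30, beside 0.60 over all listed genes. These medians do not measure a shift, because the table holds no gene within 1.5-fold. With 50.8% of listed genes higher, the overall median lies at the edge of that gap. The members' median falls on the lower side because 3 of the 5 were lower.

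DUSP1 encodes MKP-1, a nuclear phosphatase of p38, JNK and ERK that is itself an immediate early gene. Its mean over all libraries was 6230 normalized counts in the authors' deposited table. The implied group means were 3137 in control and 9322 in shikonin. In the authors' deposited table its log2 fold change was 1.57 ± 0.17 (standard error; adjusted p = 4.67e-19), which is 2.97-fold higher with a 95% interval of 2.36 to 3.74. By size this was rank 1126 of the 3630 higher genes, so DUSP1 was a moderately large riser. The gene lies at chr5:172768090-172771195 (GRCh38, GENCODE 29, minus strand) with 4 exons and a transcript of 2019 nt. An antisense gene, AC022217.3, covers 3106 bases of it and is not listed. The sources used here do not say whether the counting used strand, so reads of the pair may not be told apart.

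The promoter of DUSP1 holds a cyclic AMP response element, the site bound by CREB and ATF factors, shown because DUSP1 is the larger of the 2 rises among members. The stretch of 30 bases shown lies at chr5:172771302-172771331 (GRCh38.p14, minus strand). Its capitals mark the 8 letters of the element, which begins 125 bases before the RefSeq start:
DUSP1: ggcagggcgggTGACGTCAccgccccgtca
RefSeq promoter windows of 250 bases before to 50 after a start were found for 6 members (9 windows). DUSP4, DUSP5, ETV4 and ETV5 had no such window, so their promoters were not searched for any of the letters below. TGACGTCA, searched on both strands, was in 1.85% of 35116 such windows, and among members only in that of DUSP1. Among the other MAP kinase phosphatase, Sprouty, SPRED and PEA3 genes, it was found in DUSP8 alone, with 2 matches, and DUSP8 was not listed. Windows were not counted for these other genes, so one without a match may not have been searched. CIC octamers (TGAATGAA, TGAATGGA, TCAATGAA or TCAATGGA, both strands) were in 3.77% of windows, and among members in that of DUSP6 alone, with 2 matches. Of the other family genes, DUSP10 (higher), SPRED3 (lower), ETV1 and SPRY3 (both not listed) also held one. The ETS letters CCGGAAGT, in 4.14% of windows, were in no window of the 6 members searched.

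DUSP5 encodes a nuclear phosphatase that acts on ERK and can anchor it there. Its mean was 5446 normalized counts in the authors' deposited table, with implied means of 4043 in control and 6850 in shikonin. The log2 fold change in the authors' deposited table was 0.76 ± 0.17 (adjusted p = 1.63e-05), or 1.69-fold higher (95% interval 1.35 to 2.13). The interval reaches below the 1.5-fold threshold of the table. DUSP5 was rank 3027 of 3630 higher genes by size. Its rise is therefore among the smaller ones that were called. It is also the member whose call was lost under a rescaling made from listed genes only. Scaling these to equal implied totals in both groups lowers every log2 fold change by 0.39. The log2 value of DUSP5 was then 0.37 and no longer past 1.5-fold. The gene lies at chr10:110497838-110511544 (plus strand, 4 exons, 2557 nt). Its processed pseudogenes DUSP5P1 and DUSP5P2 are not listed.

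SPRED1 encodes the partner that recruits neurofibromin to RAS, and its loss in the germline causes Legius syndrome. Its mean in the authors' deposited table was 1709 normalized counts, with implied means of 2590 in control and 828 in shikonin. SPRED1 fell by 1.65 ± 0.14 on the log2 scale in the authors' deposited table (adjusted p = 1.74e-30), a 3.13-fold lower level (95% interval 2.59 to 3.78). Its point value was the largest in size among the 5 listed members, but its interval overlaps that of DUSP1 (2.36 to 3.74). The order of these 2 by size is thus not settled. SPRED1 was also the firmest: by the absolute Wald score it was rank 255 of 7150 listed genes. DUSP1 was 877, SPRY4 1806, SPRED2 2182 and DUSP5 4677. The gene lies at chr15:38252326-38357249 (plus strand), with a transcript of 7780 nt in 7 exons.

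SPRED2 is the close relative of SPRED1 and inhibits RAF activation by RAS. Its mean in the authors' deposited table was 937 normalized counts, and the implied means were 1348 in control and 526 in shikonin. The log2 fold change in the authors' deposited table was -1.36 ± 0.19 (adjusted p = 1.79e-11), 2.56-fold lower (1.97 to 3.34). The intervals of SPRED1 and SPRED2 overlap. Their difference of -0.29 on the log2 scale has no test here, because the covariance of the genes needs values per library. The third family gene, SPRED3, fell as well, by 0.78 ± 0.21 on the log2 scale in the authors' deposited table (adjusted p = 3.40e-04; 1.72-fold lower, 1.30 to 2.28). All 3 SPRED genes were thus listed as lower, at implied means that sum to 4341 in control and 1588 in shikonin. SPRED2 lies at chr2:65310851-65432637 (minus strand, 6 exons).

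SPRY4 encodes a Sprouty inhibitor of receptor-driven RAS and RAF activation and is a common ERK output gene. Its mean was 2234 normalized counts in the authors' deposited table, with implied means of 3181 in control and 1287 in shikonin. SPRY4 fell by 1.30 ± 0.17 on the log2 scale in the authors' deposited table (adjusted p = 5.44e-13), 2.47-fold lower (1.95 to 3.13). SPRY4 was the one Sprouty gene listed: SPRY1, SPRY2 and SPRY3 were not. It lies at chr5:142310427-142326455 (minus strand), and an antisense gene, SPRY4-AS1, which was not listed, overlaps it by 1163 bases.

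**Figure D1:**
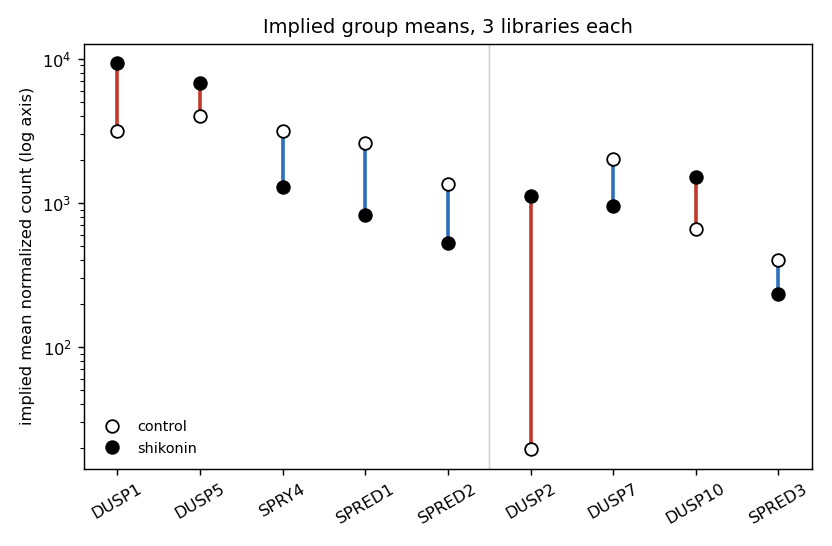
Implied mean normalized count (log axis) in control (open) and shikonin (filled) of the 5 listed members, left of the line, and of the 4 other listed genes of the same families, right of it; the connecting line is red where shikonin is higher and blue where it is lower. The means are solved from the authors' overall mean and fold, so they carry the fold's error and no spread of their own; DUSP2 goes from 19.5 to 1113.

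Per kilobase of mature transcript the implied control levels were 1581 normalized counts for DUSP5, 1554 for DUSP1, 1337 for SPRY4, 333 for SPRED1 and 329 for SPRED2, with the APPRIS principal transcript as length. In shikonin the same levels per kilobase were 4617 for DUSP1, 2679 for DUSP5, 541 for SPRY4, 128 for SPRED2 and 106 for SPRED1. DUSP1, DUSP5 and SPRY4 thus stood close together in control, and in shikonin SPRY4 stood below both phosphatase genes. The spread over libraries is not known, so neighbours in these orders were not compared by a test. The place of 2 genes depends on the transcript taken. With the transcript of longest coding sequence, SPRY4 has 4938 nt in place of 2379 and 644 normalized counts per kilobase in control. SPRED2 then has 1365 nt in place of 4097, with no 3' untranslated region, and 987 per kilobase. Its coding sequence of 1298 nt there is not a whole number of codons. That transcript model of SPRED2 is thus incomplete, and its value per kilobase is not that of a full transcript.

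The unlisted members include the genes most used as ERK output markers. DUSP6, a cytoplasmic ERK phosphatase, DUSP4, a nuclear one, and SPRY2, a Sprouty that also binds the ubiquitin ligase CBL, have no value in the table. Neither ETV4 nor ETV5, nor ETV1, the remaining PEA3 factor, was listed. At least 8712 genes were past the adjusted p threshold by the ranks that the table implies, so at least 1562 tested genes passed it with a fold of 1.5 or less. Whether any unlisted member is among them cannot be read from the table. ETV4 overlaps the listed gene DHX8 on the opposite strand over 51777 bases, and ETV5 overlaps the listed gene DGKG on the same strand over 4651 bases.

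Direction followed transcript length across the table, and is given here beside the members' values. Over 6920 listed protein-coding genes, fold change and mature length had a Spearman's rho of -0.70, a description across genes, which are not independent replicates. DUSP1 fell in the length decile of 1966 to 2503 nt, of whose listed genes 81.4% were higher, and stood at percentile 80.7 of fold change within it. DUSP5 (2505 to 3293 nt, 63.9% higher) stood at percentile 50.7, so its rise was that of a typical listed gene of its length. SPRED1 (6139 to 8008 nt, 7.37% higher) stood at percentile 22.2. SPRED2 stood at percentile 9.32 of a decile with 32.1% higher, and SPRY4 at 5.13 of the decile that also holds DUSP1. With the transcript of longest coding sequence the percentile was 29.6 for SPRY4 and 2.24 for SPRED2, whose transcript model there is incomplete. DUSP1 lay above its decile median by 0.64 (principal transcript) or 0.62 (longest coding sequence) on the log2 scale. The differences were -0.42 or -0.41 for SPRED1, -0.64 or -2.48 for SPRED2, and -2.24 or -0.27 for SPRY4. DUSP1, DUSP5 and SPRED1 have the same length under both definitions, so the second is no separate check for them. The -2.24 and -2.48 were against positive medians of 0.93 and 1.12. Any lower gene had to fall below these, so there the side was fixed in advance. The percentiles of 5.13 and 2.24 were bounded likewise, as 81.4% and 94.5% of those deciles were higher. The part of transcript length in these changes was not tested.

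**Figure D2:**
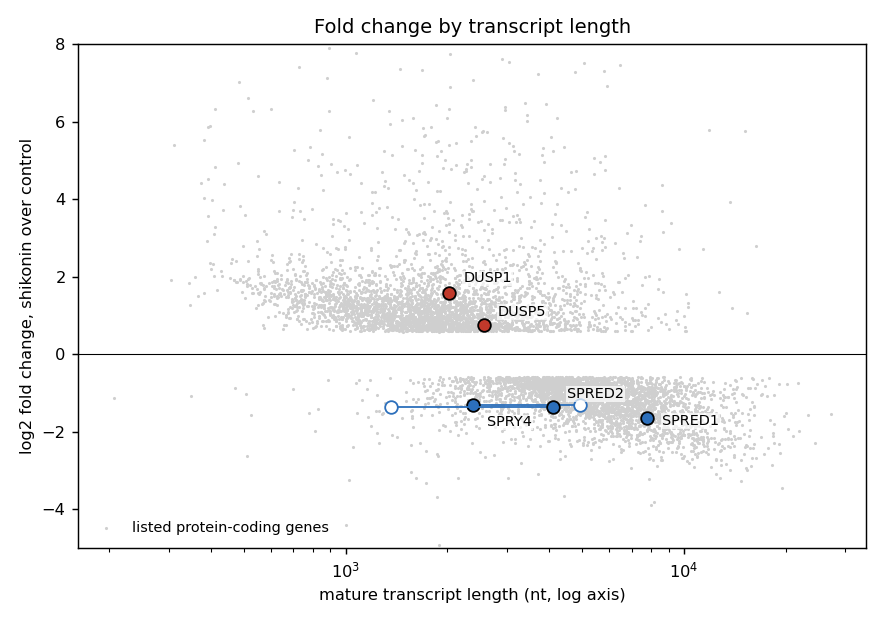
Log2 fold change, shikonin over control, against mature transcript length (log axis) for 6920 listed protein-coding genes (grey; 19 lie beyond the vertical axis) and the 5 listed members (filled, principal transcript; open, transcript of longest coding sequence where it differs). The empty band around 0 is the 1.5-fold threshold of the table. DUSP1 and DUSP5 lie among shorter transcripts and SPRED1 among the long ones. The open point of SPRED2 is an incomplete transcript model.

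AU-rich AUUUA pentamers, which can mark short-lived messages, did not sort the members by direction. DUSP1 has 4 in a 3' untranslated region of 672 nt (5.95 per kilobase), and SPRED1 has 24 in 5585 nt (4.30 per kilobase). SPRY4 has 8 (2.12 per kilobase) and SPRED2 has 5 (1.89), while DUSP5 has 0 in 1118 nt. The medians were 0.836 per kilobase over 3461 higher and 1.92 over 3431 lower protein-coding genes, so the density in DUSP1 exceeded the median of the lower genes.

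Among all 10 MAP kinase phosphatase genes, 5 were listed, 4 higher and 1 lower. Of all tested genes 50.2% were called, 25.5% as higher and 24.7% as lower, so the family was called about as often as genes in general. DUSP2, a nuclear phosphatase known from activated lymphocytes, rose most: its log2 fold change in the authors' deposited table was 5.83 ± 0.30 (95% interval 5.25 to 6.42; adjusted p = 2.77e-82), 57.0-fold, from an implied mean of 19.5 to 1113. The other listed genes changed less: by the authors' deposited table DUSP10, which acts on p38 and JNK, was 2.30-fold higher (1.83 to 2.88), and DUSP7, a cytoplasmic ERK phosphatase related to DUSP6, was 2.10-fold lower (1.72 to 2.56). Sorted by the textbook classes, a grouping made after the values were seen, the inducible nuclear class (DUSP1, DUSP2, DUSP4, DUSP5) had 3 of 4 listed and all 3 higher, the cytoplasmic ERK class (DUSP6, DUSP7, DUSP9) had 1 of 3 listed, lower, and the p38 and JNK class (DUSP8, DUSP10, DUSP16) had 1 of 3, higher. The listed inducible nuclear genes had implied means that sum to 7200 in control and 17285 in shikonin.

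Of 22 genes of the cascade that these genes restrain, from RAS to ERK, 3 were higher, 9 lower and 10 not listed, where 25.5% of all tested genes were called higher and 24.7% lower. The median over the 12 listed was -1.12 on the log2 scale. The authors' deposited table has SOS1, the RAS exchange factor gene, at 4.28-fold lower (3.13 to 5.83) and PTPN11, the gene of the phosphatase SHP2, at 3.77-fold lower (3.00 to 4.73). Likewise, in the authors' deposited table BRAF was 2.81-fold lower (2.14 to 3.70) and the scaffold gene KSR1 2.74-fold lower (2.07 to 3.62). Other cascade genes went the opposite way: by the authors' deposited table HRAS was 3.29-fold higher (2.45 to 4.42) and MAPK3, which encodes ERK1, 2.40-fold higher (1.95 to 2.96). For MAP2K2, which encodes MEK2, the authors' deposited table gives a 1.58-fold rise (1.32 to 1.90), but its log2 value with equal implied totals was 0.27, not past 1.5-fold. The cascade's listed genes had a median principal transcript of 5751 nt, beside 3294 nt over all listed protein-coding genes.

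**Figure D3:**
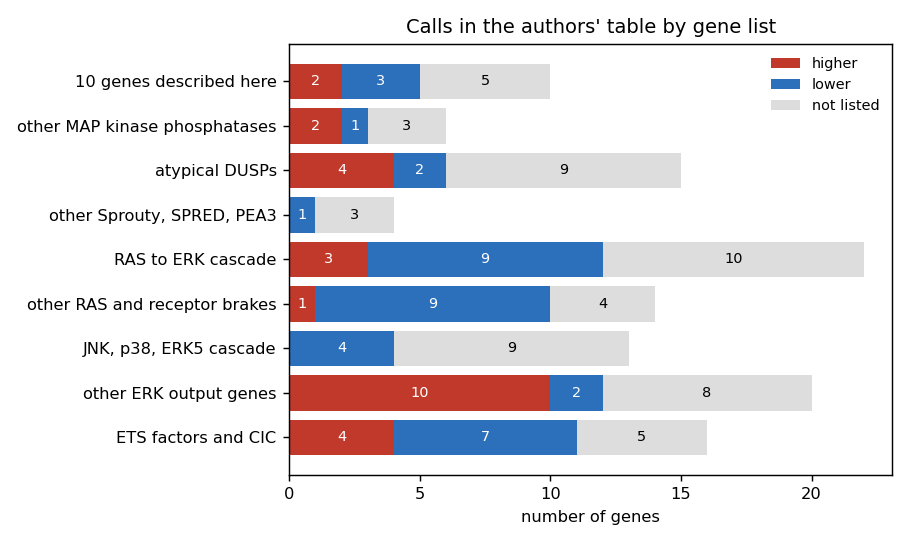
Number of genes called higher (red), lower (blue) or not listed (grey) in the authors' table, for the 10 members and 8 lists of related genes. Higher genes outnumber lower ones among the other ERK output genes (10 and 2 of 20), and lower genes outnumber higher ones in the cascade (9 and 3 of 22) and among the other brakes on RAS and receptors (9 and 1 of 14).

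Of 14 other brakes on RAS and receptor signalling, 9 were lower, 1 higher and 4 not listed (median log2 fold change -1.40), where 24.7% of all tested genes were called lower. Among these, by the authors' deposited table, NF1, the neurofibromin gene whose product SPRED proteins recruit, was 3.40-fold lower (2.60 to 4.45). For CBL, a ubiquitin ligase gene that acts on receptors, the authors' deposited table gives a level 4.58-fold lower (3.52 to 5.95). The authors' deposited table has the RAS GTPase-activating protein genes DAB2IP at 3.92-fold lower (3.02 to 5.08) and RASAL2 at 3.52-fold lower (2.78 to 4.44). The exception was RGS2, which curbs G-protein signalling, which the authors' deposited table has at 5.95 ± 0.17 on the log2 scale. The listed brakes had a median principal transcript of 5371 nt, beside 3294 nt over all listed protein-coding genes. NF1 and CBL fell in the length decile of 8008 to 27125 nt, of whose listed genes 4.48% were higher. Within it NF1 stood at percentile 37.6 of fold change and CBL at 17.1. DAB2IP stood at 3.97 (5036 to 6134 nt) and RASAL2 at 3.25 (4180 to 5034 nt) of their deciles. The part of transcript length in these falls was not tested.

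Of 20 other ERK output genes, 10 were higher, 2 lower and 8 not listed, where 25.5% of all tested genes were called higher. The median over the 12 listed was 1.54 on the log2 scale. In the authors' deposited table the immediate early genes EGR2, EGR3, FOSB and IER2 had log2 fold changes of 5.04 ± 0.26, 4.28 ± 0.32, 3.91 ± 0.15 and 1.91 ± 0.11. By the authors' deposited table CCND1, the cyclin D1 gene, was 2.23-fold lower (1.88 to 2.65) and the cytokine gene LIF 1.64-fold lower (1.34 to 2.00). PHLDA1, EPHA2, FOSL1 and MYC were among the unlisted. The relation between these calls and ERK activity cannot be read from RNA levels alone, and phosphorylated ERK was not analysed here.

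ETS factors and genes around CIC, the repressor of ETV4 and ETV5, were 4 higher, 7 lower and 5 not listed of 16. Over all tested genes, 25.5% were called higher and 24.7% lower. The listed genes of this list had a median principal transcript of 5254 nt, beside 3294 nt over all listed protein-coding genes. In the authors' deposited table CIC itself was 3.34-fold lower (2.65 to 4.21). The authors' deposited table has its partner genes ATXN1L at 3.63-fold lower (2.73 to 4.85) and ATXN1 at 1.97-fold lower (1.56 to 2.47). The ETS factor gene ELK4 had the largest fall of this list, which the authors' deposited table puts at 6.74-fold (5.16 to 8.79). By the authors' deposited table the pseudokinase gene TRIB1 was 6.69-fold higher (5.19 to 8.64) and its relative TRIB3 2.65-fold higher (2.19 to 3.20). The authors' deposited table also has ETS2 at 2.11-fold higher (1.66 to 2.68) and ETV3 at 1.73-fold higher (1.29 to 2.31), with a log2 value of 0.39 under equal implied totals. The repressor and 2 partner genes were thus lower, while none of the 3 PEA3 genes was listed. By principal transcript, CIC and ATXN1 fell in the length decile of 8008 to 27125 nt, of whose listed genes 4.48% were higher. Within it CIC stood at percentile 39.4 of fold change and ATXN1 at 79.3. ATXN1L stood at percentile 12.6 of the decile of 6139 to 8008 nt. The part of transcript length in these falls was not tested.

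Markers of the line and of other cells were checked in the same table. Of 10 genes taken as markers of the line, which include the epithelial keratin genes KRT8 and KRT18, 5 were higher (VIM, CAV1, SPARC, KRT8 and KRT18), 2 lower (ZEB1 and FN1) and 3 not listed. Vimentin (VIM) had a mean of 64429 normalized counts in the authors' deposited table. Of 10 luminal and receptor markers, 5 were higher and 1 lower, and the implied means of the 6 listed summed to 11450 in control and 27666 in shikonin. KRT19 held most of both sums, at 8439 and 23600.5, while ERBB2 went from 2174 to 1090.4. ESR1, PGR, GATA3 and CDH1 were not listed. Of the immune markers 2 of 6, CD14 and CD68, and of the endothelial markers 1 of 5, PECAM1, were listed, all higher, while PTPRC, CD3E and CDH5 were not. The mitochondrially encoded messages, kept as a measure of RNA quality, were 3 higher, 2 lower and 8 not listed of 13. Beside all these marker counts, 25.5% of all tested genes were called higher and 24.7% lower. The part of these shifts in the members' changes was not tested, and in bulk RNA fewer cells of a kind and less RNA per cell cannot be told apart.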

How the data were processed

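RNA-seq of 3 control and 3 shikonin libraries was summarised by the authors as 1 comparison. Tools named in the submitters' processing notes are HISAT2 2.0.5, fastp and DESeq2, with hg38 as the build. The sources used here give no read counter, annotation or strandedness. Per the file headers, the mean normalized count is a signal that the authors averaged over all libraries after scaling with size factors. Also per the file headers, the authors' log2 fold change, its standard error and the Wald score come from DESeq2, and the score was checked to equal the ratio of the first pair. The p-value and adjusted p-value are deposited by the authors from DESeq2. The table was checked to hold only folds above 1.5 with adjusted p below 0.05. Genes that the authors mark "up" have positive values and are taken as higher in shikonin, since the header does not name the numerator.

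The planned tests on per-sample values could not be run, since the table has 0 such columns. Group means were solved from mean and fold, with equal weight of the groups. Intervals at 95% take the listed standard error as normal. How many genes were tested was solved from p and adjusted p, by a search tested on simulated data. GENCODE 29 (GRCh38) matched 7142 of 7150 genes by Ensembl identifier, and promoter letters came from RefSeq (GRCh38.p14). Scripts used Python 3.11.15, pandas 2.3.3 and scipy 1.17.1. Members and lists were chosen with earlier results of these data known. All members, all listed genes of their families, and in each other list up to 4 genes a direction by size of change were named; other names, and the classes of phosphatases, were chosen after values were seen. Alternatives changed the fold, adjusted p and level thresholds, the scaling, and the length used.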

Additional observations from a re-analysis of the deposited data

How the results depend on the processing

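DUSP1, SPRY4, SPRED1 and SPRED2 kept direction and a size above 1.5-fold under both rescalings tried, and DUSP5 kept its direction alone. Both rescalings lowered every log2 fold change, by 0.39 or 0.60. For SPRY4, SPRED1 and SPRED2 this outcome was therefore fixed in advance. Both rest on listed genes only, and the median of 0.60 lies at the edge of the gap left by the 1.5-fold threshold. Neither stands in for a scaling over all tested genes, for DUSP1 and DUSP5 as well. The count of higher members was 2, and 1 (DUSP1) at a fold of at least 2, with the 95% interval beyond 1.5-fold, or with equal implied totals. The 3 lower members were called under all 5 alternatives to the thresholds and scaling. Of these alternatives, equal totals and a mean of at least 100 could not have dropped them, since their means were 937 to 2234. The log2 value of DUSP5 was 0.37 with equal totals, 0.16 with the median of listed genes at 0, and 0.0043 or 0.0089 against its length decile (principal transcript or longest coding sequence). Against length deciles SPRED1 stood at -0.42 or -0.41, and SPRY4 at -0.27 with the longest coding sequence, all within 1.5-fold. For DUSP1, DUSP5 and SPRED1 the 2 definitions give the same length, so only the peers differ between their paired values. SPRED1 minus SPRED2, -0.29, became 0.21 and 2.07 against the 2 sets of deciles. The value of 2.07 rests on the incomplete transcript model of SPRED2. At a fold of at least 2, the lower genes numbered 0 of the other Sprouty, SPRED and PEA3 genes, 1 of the JNK, p38 and ERK5 cascade, 1 of the other ERK output genes and 3 of the ETS and CIC list. The other 70 of 86 recomputed values kept their direction and their side of the thresholds, or a count within 1.5 times. The cause of these shifts was not tested. No paired analysis was possible because the columns carry no samples, and for the same reason leaving out replicates, other normalizations and filters on counts were not run. Depth is unknown, so its limit on any member cannot be given.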

Other observations

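Among 15 atypical dual-specificity phosphatase genes, which mostly lack the MAP kinase binding region of the DUSP1 class, 4 were higher, 2 lower and 9 not listed. The shares over all tested genes were 25.5% called higher and 24.7% lower. In the authors' deposited table DUSP28 differed most, at 5.99-fold higher (4.06 to 8.86). The authors' deposited table has DUSP23 at 2.92-fold higher (2.17 to 3.94) and DUSP12 at 1.80-fold higher (1.39 to 2.33). DUSP15 had a mean of 19.5 normalized counts in the authors' deposited table and stood there at 1.93 ± 0.69 on the log2 scale, the least precise value of the list. On the lower side, the authors' deposited table has DUSP18 at 2.85-fold (1.91 to 4.25) and the pseudophosphatase gene STYX at 2.36-fold (1.83 to 3.04).

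Of 13 kinase genes of the JNK, p38 and ERK5 cascades, 0 were higher, 4 lower and 9 not listed, where 24.7% of all tested genes were called lower. In the authors' deposited table MAP2K4, an activator of JNK, was 2.62-fold lower (2.12 to 3.25), and MAP2K7, the other JNK activator, 1.71-fold lower (1.40 to 2.10). By the authors' deposited table MAPK14, which encodes p38 alpha, was 1.81-fold lower (1.54 to 2.14), and MAPK7, which encodes ERK5, 1.71-fold lower (1.36 to 2.14).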
